A study of Homo sapiens with 18 samples.

Results

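Genes that encode liver-made proteins of blood coagulation, fibrinolysis, the kinin system and complement were followed in HepG2 cells, a human line derived from a hepatoblastoma and widely used as a stand-in for hepatocytes. The 40 members were taken from the deposited count table by gene symbol and were described across all 6 groups of the study. All 40 had a row among the 35238 gene rows. The low-count filter was passed by 38 of them and by 14797 genes in all. The exceptions were F9, the gene of coagulation factor IX, and C9, the gene of the last component of the complement attack complex.

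The study treated HepG2 cells with compounds made or used as ligands of LRH-1, a nuclear receptor of liver that is encoded by NR5A2. The groups were 6N, 10CA and 6N-10CA, small molecules given at 10 µM each, DLPC (dilauroylphosphatidylcholine), a phospholipid given at 100 µM, and the vehicles DMSO and ethanol at 0.1% each. Each group had 3 libraries. Every group, vehicles included, was kept in medium with charcoal-stripped serum, which is depleted of small lipophilic hormones. How long the cells were treated is not given in the sources used here. The pairing of compounds with vehicles is not in the labels. The small molecules were set against DMSO and DLPC against ethanol from knowledge of the study. Because the doses differ, values for DLPC and for the small molecules stand side by side and were not compared.

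Coagulation is a chain of proteases and cofactors that ends when thrombin, made from prothrombin, turns fibrinogen into fibrin. The contact factors and kininogen feed into that chain and release bradykinin, antithrombin and other inhibitors restrain it, and plasmin dissolves the clot. Complement is a second protease cascade, started by C1, by the lectins or by the alternative pathway, and it ends in a pore built from C5b to C9, while factor I and C4b-binding protein shut it down. Hepatocytes make most of these plasma proteins, under transcription factors such as HNF1, HNF4 and the C/EBP family.

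Promoter sequences of 4 members are shown because the results below turn on KNG1, C4BPB and FGA, and because C4BPB and SERPIND1 were the members whose promoters held the core of the LRH-1 element. They come from RefSeq on GRCh38.p14 and cover the 250 bases before the annotated start of transcription, written 5′ to 3′ on the strand of the gene. Capitals mark the searched motifs on either strand. C4BPB and SERPIND1 have the LRH-1 core CAAGGTCA, KNG1 has TTGCNNAA, a C/EBP-type motif, and FGA has TTGCNNAA and then the HNF1-type motif GTTAATNAT, both on the opposite strand.
C4BPB promoter, chr1:207088989-207089238, plus strand: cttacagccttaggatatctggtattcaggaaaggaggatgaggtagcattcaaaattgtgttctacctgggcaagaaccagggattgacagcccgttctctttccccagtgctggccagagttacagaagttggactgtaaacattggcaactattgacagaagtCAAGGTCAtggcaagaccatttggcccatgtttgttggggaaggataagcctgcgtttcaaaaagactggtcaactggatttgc
SERPIND1 promoter, chr22:20773863-20774112, plus strand: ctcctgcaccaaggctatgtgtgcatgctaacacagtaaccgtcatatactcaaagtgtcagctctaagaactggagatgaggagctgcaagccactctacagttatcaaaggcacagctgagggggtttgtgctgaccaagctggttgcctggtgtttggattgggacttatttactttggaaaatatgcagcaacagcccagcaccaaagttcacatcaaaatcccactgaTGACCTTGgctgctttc
KNG1 promoter, chr3:186717109-186717358, plus strand: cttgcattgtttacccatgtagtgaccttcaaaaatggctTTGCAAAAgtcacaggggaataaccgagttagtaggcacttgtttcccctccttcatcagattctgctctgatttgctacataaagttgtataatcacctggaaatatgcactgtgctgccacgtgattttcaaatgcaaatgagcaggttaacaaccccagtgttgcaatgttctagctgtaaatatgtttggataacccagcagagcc
FGA promoter, chr4:154590743-154590992, minus strand: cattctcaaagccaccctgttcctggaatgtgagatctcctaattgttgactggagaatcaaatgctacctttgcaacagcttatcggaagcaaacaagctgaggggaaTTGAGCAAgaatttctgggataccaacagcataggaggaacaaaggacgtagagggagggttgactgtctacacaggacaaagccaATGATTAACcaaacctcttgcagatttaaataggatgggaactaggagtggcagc

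In C4BPB the LRH-1 core lay at 207089155 to 207089162 on chromosome 1, 84 bases before the start, and read forward. In SERPIND1 it lay at 20774096 to 20774103 on chromosome 22, 17 bases before the start, and read on the opposite strand. RefSeq lists 3 starts for C4BPB, and the same site fell in the windows of 2 of them. GENCODE release 29 puts the outermost start of all 4 genes upstream of the RefSeq start used here, so part of each stretch lies inside an annotated gene span. Promoter windows from 250 bases before to 50 bases after the start were found for 34 of the 40 members, against 27305 genes in all. The letters CAAGGTCA stood in a window of 2 of the 34 members (5.88%), against 1.60% of all genes. GTTAATNAT stood in 14.7% of the members and 0.963% of all genes, TTGCNNAA in 29.4% and 12.7%, and the HNF4-type motif CAAAGTCCA in 2.94% and 0.472%. These are matches of letters and not measured binding.

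Total counts ran from 28135967 to 34992442 per library, and the 40 members together held 1.14% to 1.30% of them. The 10 hepatocyte markers, among them albumin and HNF4A, were all tested and summed to 55774 to 74377 CPM per library (CPM is a count divided by the library total, scaled to a fixed sum). Markers of stromal cells summed to 95.5 to 122 CPM, most of it from ACTA2, endothelial markers to 30.2 to 47.4 CPM with KDR and TEK at 0 in every library, and blood markers to 82.4 to 114 CPM with HBB at 0 in every library and nearly all from CD68. Levels below are CPM scaled with TMM factors, and changes are log2 fold changes of the fit with their SE. A gene is called where edgeR's quasi-likelihood test gave an adjusted p under 0.05 over all genes tested. In bulk RNA, fewer cells that make a transcript and less of it per cell cannot be told apart. Nothing in the labels says that the replicates are separate cultures, so the p-values rest on a spread between libraries that may be technical only.

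The members spanned a wide range of levels. Per kilobase of merged exon and averaged over all 18 libraries, A2M, the broad protease inhibitor alpha-2-macroglobulin, was the most abundant at 574 CPM per kb. FGG followed at 365, VTN, the gene of vitronectin, at 347 and SERPINF2, the gene of the plasmin inhibitor alpha-2-antiplasmin, at 305. A2M stood above FGG in every library, since its lowest library was at 494 CPM per kb and the highest FGG library at 421. FGG and VTN were not separated over the libraries, with ranges of 320 to 421 and 280 to 406 CPM per kb. Prothrombin (F2) was at 277 and FGB at 238 CPM per kb, and the antithrombin gene SERPINC1 at 183. At the low end KLKB1, the gene of plasma prekallikrein, was at 0.839 and F13B, the gene of the factor XIII B subunit, at 0.450 CPM per kb. F9 was listed at 0 to 5 counts and C9 at 0 to 2 counts per library, where 3 counts correspond to 0.0857 to 0.107 CPM. Neither was detectable at a level that would show a difference between groups.

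Few members were called in the fit that leaves out the replicate number, which this paragraph and the next one report. With the number as a block, more were called in every comparison except 10CA against DMSO, as given further below. For 6N against DMSO the block called 8 members (3.72% of all genes). Without it, 2 of the 38 tested members were called with 6N against DMSO (5.26%, against 1.14% of all genes tested), KNG1 and C4BPB, both higher. With 10CA against DMSO edgeR called 0 members and 0% of all genes. An unadjusted p under 0.05 was reached there by 4 members and 1033 genes in all, DESeq2 called 0 members and 13 genes, and limma-voom called 0 genes. With 6N-10CA against DMSO 1 member was called, KNG1 (2.63%, against 0.264% of all genes). With DLPC against ethanol it was CFI, lower (2.63%, against 1.04%). A count of 1 is the smallest above 0 and says little of the members as a set. The median size of the members' log2 change was 0.10 with 6N, 0.06 with 10CA, 0.08 with 6N-10CA and 0.10 with DLPC, against 0.08, 0.08, 0.08 and 0.09 over all genes. The half-width of a member's 95% interval was 0.16 at the median in these comparisons. Groups whose libraries did not overlap were common. They were found for 13.6% of all genes with 6N, 12.8% with 10CA, 14.8% with 6N-10CA and 19.2% with DLPC. Without overlap, 6 of the 38 members stood higher and 6 lower with 6N, and 2 and 5 with 10CA. With 6N-10CA it was 7 and 5, and with DLPC 2 and 7.

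The 3 small molecules were also compared with each other at their shared dose, in 3 pairs. Between 10CA and 6N, 5 members were called (13.2%, against 1.71% of all genes): CFI, CPB2 and PROS1 were higher with 10CA, and KNG1 and C4BPB were lower. Between 6N-10CA and 10CA, 1 member was called, KNG1 (2.63%, against 0.23%). Between 6N-10CA and 6N, 0 members were called (against 1.64% of all genes), and DESeq2 called 2 (C5 and CPB2) and 501 genes in all. An unadjusted p under 0.05 was reached by 11 members and by 2137 of all genes. The median size of the members' change was 0.16 between 10CA and 6N, 0.09 between 6N-10CA and 10CA and 0.10 between 6N-10CA and 6N, against 0.09, 0.08 and 0.09 over all genes. In the same order, 16.7%, 12.5% and 17.7% of all genes showed no overlap between the groups. Of the members, 8 stood higher and 5 lower in this way, then 5 and 5, then 7 and 2. Adjusted over the 3 pairs together as well as over genes, the 5 members of the first pair and KNG1 in the second remained called, and C4BPB joined in the second (0.21, adjusted p = 0.0293).

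Libraries with the same replicate number met the criterion for pairing in 7 of the 8 comparisons, all but 6N against DMSO. With the number as a block, more members were called in each of these except 10CA against DMSO. Between 10CA and 6N the count was 14 (36.8%, against 7.66% of all genes), between 6N-10CA and 6N 9 (23.7%, against 8.32%) and between 6N-10CA and 10CA 7 (18.4%, against 2.36%). For 6N-10CA against DMSO it was 4 (10.5%, against 3.8%), for DLPC against ethanol 9 (23.7%, against 6.74%) and for 10CA against DMSO 0 (against 0.216%). For these 7 comparisons, values with the block are given below where they change a member's call. In 6N against DMSO 1 of the 3 correlations, 0.0874, lay under the cutoff of 0.1. All 18 libraries correlated best with their own number. The block called 8 members there (3.72% of all genes). KNG1 and C4BPB were higher, and C8A, CFB, CFI, MBL2, SERPING1 and TFPI were lower.

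**Figure D1:**
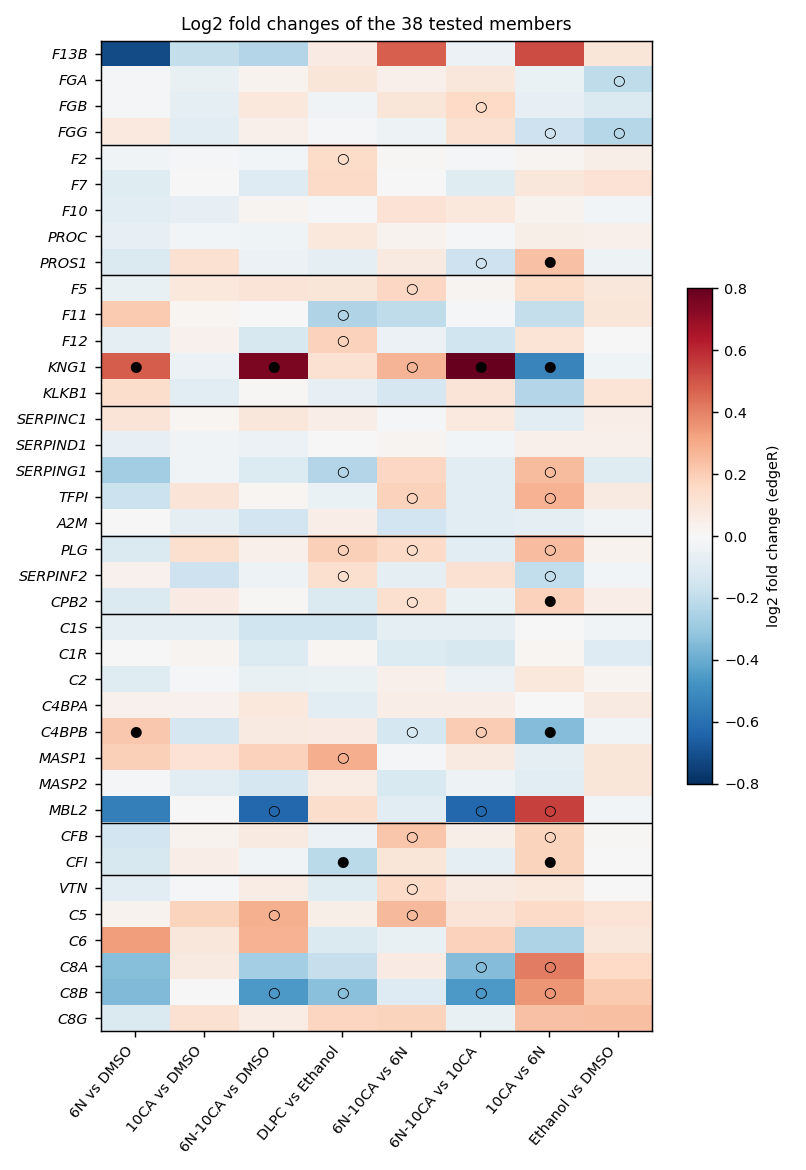
Log2 fold changes of the 38 tested members (rows, ordered by role) in the 8 comparisons (columns), from 0.8 lower (blue) to 0.8 higher (red). Filled circles mark members called by edgeR. Open circles mark members called only with the replicate number as a block, in the comparisons that met the criterion for pairing. The comparison of 6N against DMSO did not meet it, and its column carries no open circle. C8A, CFB, CFI, MBL2, SERPING1 and TFPI were called there only with the block. KNG1 carries a filled circle in 4 columns, and the 10CA against DMSO column has no circle.

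KNG1, the gene of kininogen, which carries bradykinin and acts as a cofactor of the contact factors (GRCh38 chromosome 3, 186717276 to 186744410), had the largest called changes of any member. Its level was 24.5, 23.9 and 30.2 CPM with 6N, 17.3, 17.4 and 19.6 CPM with 10CA and 31.4, 31.4 and 32.0 CPM with 6N-10CA, against 17.8, 19.4 and 19.1 CPM with DMSO. All libraries of 6N and of 6N-10CA stood above every DMSO library, and those of 10CA overlapped them. KNG1 rose by 0.48 (SE 0.09, adjusted p = 0.00501) with 6N and by 0.75 (SE 0.09, adjusted p = 0.00014) with 6N-10CA, 1.40-fold and 1.68-fold by the means. Among all 14797 genes it had the sixth smallest p with 6N-10CA. The endothelial markers also stood higher with 6N-10CA (36.5 to 38.3 CPM, against 33.0 to 35.6 CPM with DMSO; KDR and TEK at 0), and their part in this rise was not tested. With 10CA the KNG1 change was -0.05, with a 95% interval of -0.24 to 0.14.

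Set against each other, the small molecules differed in KNG1. It was higher with 6N-10CA than with 10CA by 0.80 (SE 0.09, adjusted p = 0.000325), the smallest p of all genes in that pair. It was lower with 10CA than with 6N (-0.53, SE 0.09, adjusted p = 0.00181). Between 6N-10CA and 6N the difference of 0.27 (95% interval 0.09 to 0.45, adjusted p = 0.128) did not pass. It did with the block (0.28, adjusted p = 0.011) and without 6N replicate 3, the highest of the 6N libraries (0.39, adjusted p = 0.019). These were the only 2 of 14 alternative settings in which it passed. Over the 6 fits with 1 library left out, the difference ran from 0.20 to 0.39, with adjusted p up to 0.411. The other 4 calls of KNG1 held under all 14 alternative settings tried in each comparison. With DLPC the levels were 18.6, 21.2 and 19.98 CPM, against 17.2, 17.6 and 20.2 CPM with ethanol, and the groups overlapped (0.12, adjusted p = 0.61). KNG1 shares 722 exon bases (15.4% of its own) with the antisense gene AC068631.1, and since the strandedness of the libraries is not given here, reads of the pair cannot be told apart in that stretch.

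**Figure D2:**
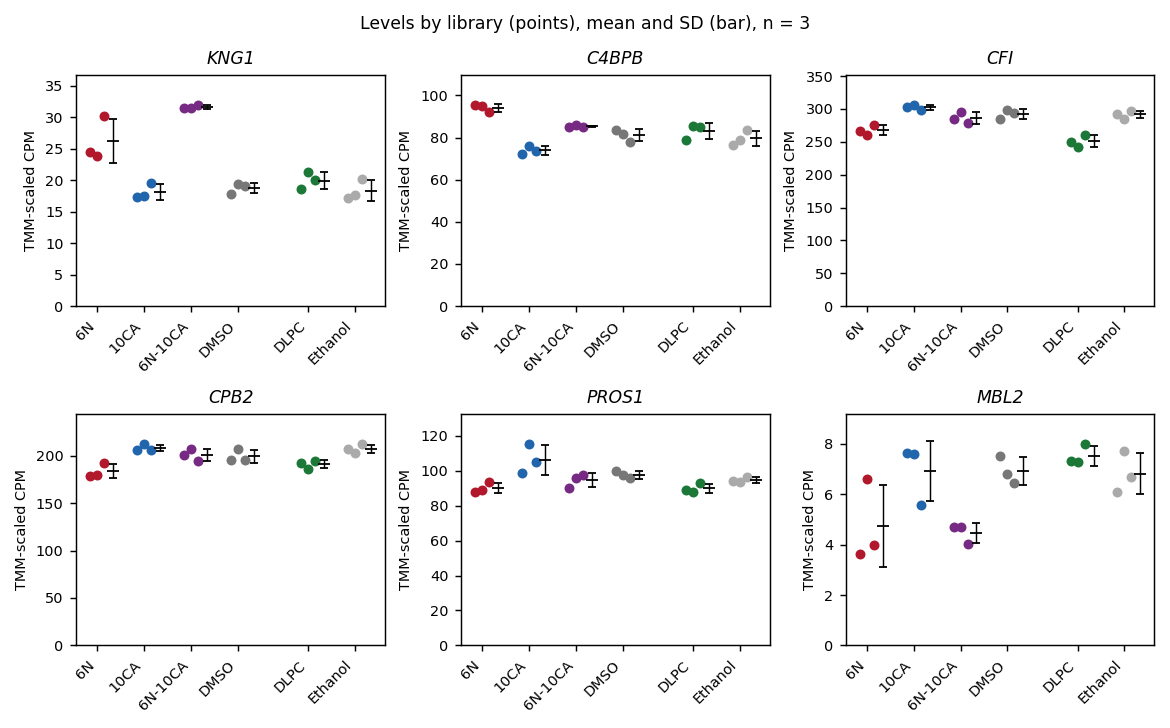
TMM-scaled CPM (vertical axes from 0) of 6 members in each library, by group, with mean and SD (n = 3) beside the points. KNG1 stands at 31.4 to 32.0 with 6N-10CA and at 17.8 to 19.4 with DMSO, and CFI at 242 to 260 with DLPC and 285 to 297 with ethanol.

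The other contact factors and factor V were not called in any of the 8 comparisons. F11, the gene of factor XI, the protease that activates factor IX, measured 36.8, 36.3 and 43.6 CPM with 6N and 28.9, 32.3 and 30.4 CPM with DLPC, against 32.1, 34.8 and 34.3 CPM with DMSO and 37.8, 35.9 and 34.6 CPM with ethanol. The 6N libraries stood above the DMSO libraries and the DLPC libraries below the ethanol libraries, without overlap. The changes were 0.21 (SE 0.07, adjusted p = 0.278) with 6N and -0.24 (SE 0.07, adjusted p = 0.121) with DLPC, and the DLPC change passed with the block (-0.24, adjusted p = 0.0302). F12, the gene of factor XII, which starts contact activation, and F5, the cofactor of factor Xa, passed with the block in 1 comparison each. F12 was higher with DLPC (0.18, adjusted p = 0.0379), and F5 was higher with 6N-10CA than with 6N (0.17, adjusted p = 0.0245). Reads of F12 can be shared with GRK6, which overlaps 399 of its exon bases. KLKB1 lay between 1.78 and 3.66 CPM and was not called with or without the block. Its reads can be shared with CYP4V2, which overlaps 201 of its exon bases (6.81%) on the same strand. Over all libraries CYP4V2 held 4137 counts and KLKB1 1379.

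C4BPB encodes the beta chain of C4b-binding protein, the chain that binds protein S, and lies next to C4BPA, which encodes the alpha chains that bind C4b (chromosome 1, 207088842 to 207099993 and 207104262 to 207144972). C4BPB measured 95.6, 94.95 and 92.1 CPM with 6N, 72.1, 76.2 and 73.6 CPM with 10CA and 85.1, 85.8 and 85.1 CPM with 6N-10CA, against 83.7, 81.9 and 77.9 CPM with DMSO. The 6N libraries were above and the 10CA libraries below every DMSO library, and the 6N-10CA libraries lay between those of 6N and 10CA and just above DMSO. Against DMSO the rise with 6N was 0.21 (SE 0.05, adjusted p = 0.0183), the change with 10CA was -0.13 (SE 0.05, adjusted p = 0.663) and that with 6N-10CA was 0.07 (SE 0.05, adjusted p = 0.655). The call with 6N was lost without DMSO replicate 2 or 3 or 6N replicate 1 or 2 (adjusted p = 0.0564 to 0.123) and with only the 2 groups in the fit (adjusted p = 0.104).

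Between 10CA and 6N the difference in C4BPB was larger than that of any small molecule against DMSO. C4BPB was lower with 10CA than with 6N (-0.35, SE 0.05, adjusted p = 0.000152), a call that held under all 14 alternatives. With 6N-10CA it was above 10CA by 0.21 (SE 0.05, adjusted p = 0.0634; adjusted p = 0.00804 with the block) and the change from 6N was -0.14 (SE 0.05, adjusted p = 0.13; adjusted p = 0.0325 with the block). C4BPA was called nowhere, and its libraries lay at 65.5 to 72.4 CPM with 6N, 65.7 to 71.8 CPM with 10CA, 69.2 to 74.4 CPM with 6N-10CA and 66.3 to 68.2 CPM with DMSO. Between 10CA and 6N it changed by -0.00, with a 95% interval of -0.11 to 0.11. Per kilobase, C4BPB made up 50.9% ± 1.25 of the counts of the pair with 6N, 44.9% ± 1.02 with 10CA, 47.5% ± 0.813 with 6N-10CA and 47.7% ± 1.28 with DMSO (SD, n = 3 each). With DLPC the share was 48.6% ± 0.85, against 46.1% ± 1.66 with ethanol, and C4BPB itself was not called (79.0, 85.6 and 84.8 CPM, against 76.7, 78.7 and 83.5 CPM). Not divided by length, C4BPB held 50.6% to 59.2% of the pair over all libraries, against 43.7% to 52.4% per kilobase.

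**Figure D3:**
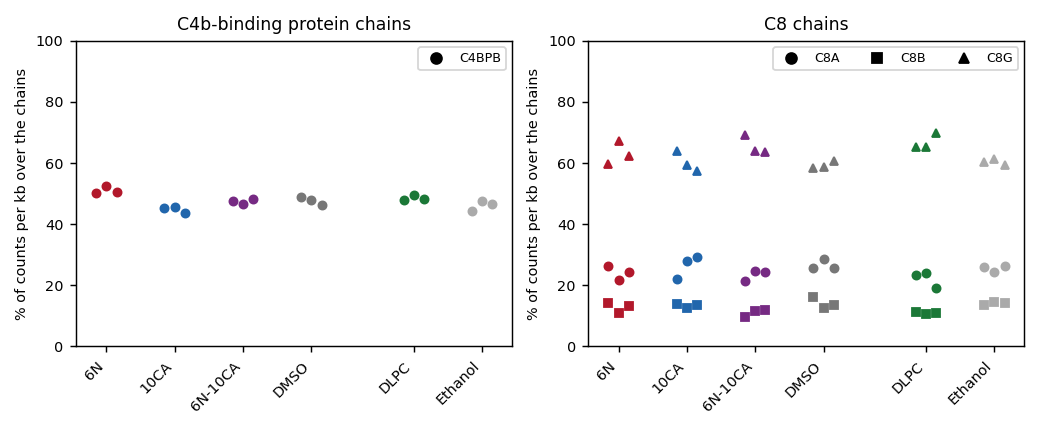
Share of each chain in the counts per kilobase of its complex, in percent, by library and group. The C4BPB share (left, of C4BPA and C4BPB) is 50.03 to 52.4% with 6N and 43.7 to 45.5% with 10CA, and the C8B share (right, squares) is 10.7 to 11.4% with DLPC and 13.7 to 14.4% with ethanol.

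The remaining members that start complement were not called in the fit without the block. MBL2 encodes mannose-binding lectin, which recognises sugars on microbes (chromosome 10, 52765380 to 52771700), and was low in these cells. It measured 3.62, 6.61 and 3.999 CPM with 6N, 7.63, 7.59 and 5.55 CPM with 10CA and 4.68, 4.71 and 4.01 CPM with 6N-10CA, against 7.53, 6.79 and 6.44 CPM with DMSO. All 6N-10CA libraries were below the DMSO libraries, while 6N replicate 2 stood among them. The change was -0.55 (SE 0.18, adjusted p = 0.234) with 6N and -0.63 (SE 0.18, adjusted p = 0.161) with 6N-10CA. Without 6N replicate 2 the 6N change was -0.86 and passed (adjusted p = 0.00678), as did the difference of 10CA from 6N (0.86, adjusted p = 0.00602). In each of these 2 comparisons that was the only 1 of 6 fits with a library left out that passed. Over the 6 fits the 6N change ran from -0.86 to -0.39 (adjusted p up to 0.584). The difference of 10CA from 6N ran from 0.39 to 0.86 (adjusted p up to 0.465). With the block the 6N-10CA change passed (-0.64, adjusted p = 0.0229), as did 6N-10CA against 10CA (-0.63, adjusted p = 0.0302) and 10CA against 6N (0.56, adjusted p = 0.0291). The 6N change passed with it too (-0.56, adjusted p = 0.0439), in the comparison that did not meet the criterion for pairing. Without the low-count filter, each of these differences also passed (adjusted p = 0.0151 to 0.0431). With 10CA against DMSO the change was 0.00, with a 95% interval of -0.36 to 0.36. DLPC gave 7.30, 7.30 and 7.99 CPM, against 6.07, 7.70 and 6.68 CPM with ethanol.

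MASP1, the gene of a protease of the lectin pathway, lay between 13.7 and 24.9 CPM and passed only for DLPC against ethanol with the block (0.29, adjusted p = 0.0179). MASP2, the gene of the lectin pathway protease that cleaves C4 and C2 (31.0 to 42.5 CPM), and C1R and C1S, the proteases of C1 (4.34 to 7.47 and 23.8 to 33.97 CPM), were called in no comparison with or without the block. C2, which gives the protease part of the C3 convertase, lay at 389 to 494 CPM and was not called either. C1R is uncertain, since 672 of its exon bases overlap C1RL.

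CFI, the gene of factor I, the protease that cleaves C3b and C4b (chromosome 4, 109740694 to 109802179), was the member called with DLPC. It measured 251, 242 and 260 CPM with DLPC, against 292, 285 and 297 CPM with ethanol, without overlap. The fall was -0.22 (SE 0.04, adjusted p = 0.0078) and held under all 14 alternatives, DMSO as the vehicle among them. Some markers of other cell types also differed between these groups: the blood markers summed to 108 to 114 CPM with DLPC and 92.9 to 98.0 CPM with ethanol, and the endothelial markers to 38.6 to 47.4 CPM and 37.0 to 38.5 CPM. CD68 made up most of the blood sum (0.21, adjusted p = 0.094), HBB, KDR and TEK were at 0 in all libraries, and the part of these markers in the CFI change was not tested. In the small molecule groups CFI measured 267, 261 and 276 CPM with 6N, 303, 306 and 299 CPM with 10CA and 285, 296 and 278 CPM with 6N-10CA, against 284, 298 and 294 CPM with DMSO. All 6N libraries were below and all 10CA libraries above the DMSO libraries, although neither change passed (-0.13, adjusted p = 0.195, and 0.05, adjusted p = 0.821). With the block, the 6N change passed (-0.13, adjusted p = 0.0407), in the comparison that did not meet the criterion for pairing. Between 10CA and 6N the difference of 0.18 (SE 0.04, adjusted p = 0.0214) was called. That call was lost with only the 2 groups in the fit (adjusted p = 0.161) and without any of the libraries 6N replicate 1 or 2 or 10CA replicate 1, 2 or 3 (adjusted p = 0.0721 to 0.127). The annotation places AC126283.2, a gene on the same strand, over 32.0% of the exon bases of CFI.

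CFB encodes factor B, the protease of the alternative pathway, and lies directly after C2 on chromosome 6. It measured 378 to 449 CPM with 6N, 423 to 491 CPM with 10CA and 428 to 528 CPM with 6N-10CA, against 416 to 486 CPM with DMSO, with overlap in each case. With the block it was higher with 6N-10CA than with 6N (0.22, adjusted p = 2.8e-05) and higher with 10CA than with 6N (0.18, adjusted p = 0.000333), neither of which passed without it (adjusted p = 0.235 and 0.382). The readthrough gene AL645922.1 overlaps 45.01% of the exon bases of CFB and 32.9% of those of C2 and is listed at 0 counts.

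In the terminal pathway, no member was called without the block. C5, whose cleavage starts pore assembly (chromosome 9, 120952335 to 121050276), measured 38.3, 46.0 and 40.8 CPM with 6N-10CA, 32.6, 36.3 and 36.0 CPM with 6N and 38.4, 40.0 and 37.99 CPM with 10CA, against 32.8, 34.6 and 35.6 CPM with DMSO. The libraries of 6N-10CA and of 10CA stood above all DMSO libraries. The change with 6N-10CA was 0.28 (SE 0.07, adjusted p = 0.0944; adjusted p = 0.00589 with the block) and that with 10CA 0.18 (SE 0.07, adjusted p = 0.672). Between 6N-10CA and 6N it was 0.26 (SE 0.07, adjusted p = 0.0641). It passed there with the block (adjusted p = 0.0053), with DESeq2 (adjusted p = 0.0166), under 2 other filters (adjusted p = 0.0475 and 0.0499) and without 6N-10CA replicate 1 (0.31, adjusted p = 0.0303).

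C8A and C8B, neighbours on chromosome 1, encode the alpha and beta chains of C8, which anchors the pore in the membrane, and C8G on chromosome 9 encodes its gamma chain. C8A measured 20.2, 16.1 and 16.7 CPM with 6N, 22.7, 20.8 and 27.2 CPM with 10CA and 18.6, 18.8 and 18.2 CPM with 6N-10CA, against 23.1, 21.4 and 22.6 CPM with DMSO. C8B measured 12.6, 9.50 and 10.4 CPM with 6N, 16.2, 10.8 and 14.6 CPM with 10CA and 9.68, 10.2 and 10.3 CPM with 6N-10CA, against 16.7, 11.02 and 13.8 CPM with DMSO. Both were low with 6N and 6N-10CA, with no overlap with DMSO except for C8B with 6N, and none of these changes passed without the block. They were -0.34 (adjusted p = 0.216) and -0.36 (adjusted p = 0.441) with 6N for C8A and C8B, and -0.27 (adjusted p = 0.38) and -0.46 (adjusted p = 0.27) with 6N-10CA. With the block C8B passed for 6N-10CA against DMSO (-0.44, adjusted p = 0.0178) and for DLPC against ethanol (-0.35, adjusted p = 0.0378), where it measured 14.2, 10.9 and 12.9 CPM, against 16.5, 15.6 and 15.9 CPM.

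Between the compounds, both chains passed with the block for 6N-10CA against 10CA (C8A -0.34, adjusted p = 0.0428, and C8B -0.44, adjusted p = 0.0217) and for 10CA against 6N (0.41, adjusted p = 0.00482, and 0.35, adjusted p = 0.0353). Without the block the closest was C8A between 10CA and 6N (0.41, SE 0.11, adjusted p = 0.0559). C8G changed by -0.12 with 6N and 0.06 with 6N-10CA against DMSO and was not called anywhere. Per kilobase, C8G held 57.3% to 70.0% of the counts of the 3 chains, C8A 19.1% to 29.2% and C8B 9.56% to 16.0%. With DLPC C8B held 10.99% ± 0.359, against 14.2% ± 0.423 with ethanol (SD, n = 3 each). C6, a further pore component at 5.27 to 9.26 CPM, was not called. VTN, whose product binds the forming pore and also the plasminogen activator inhibitor, lay at 679 to 986 CPM. It passed only with the block, higher with 6N-10CA than with 6N (0.16, adjusted p = 0.00908).

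The fibrinogen genes FGB, FGA and FGG encode the chains that form fibrin and sit side by side on chromosome 4 (154562956 to 154571086, 154583126 to 154590766 and 154604134 to 154612967). None of them was called against DMSO with any small molecule. FGA measured 723, 665 and 678 CPM with 6N, 660, 683 and 651 CPM with 10CA and 727, 706 and 690 CPM with 6N-10CA, against 692, 703 and 684 CPM with DMSO. FGB measured 685, 636 and 653 CPM with 6N, 607, 659 and 623 CPM with 10CA and 707, 713 and 689 CPM with 6N-10CA, against 670, 676 and 646 CPM with DMSO. FGG measured 1516, 1406 and 1436 CPM with 6N, 1260, 1366 and 1266 CPM with 10CA and 1409, 1480 and 1346 CPM with 6N-10CA, against 1333, 1467 and 1322 CPM with DMSO. FGB with 6N-10CA stood just above all DMSO libraries and FGA with 10CA just below them, and the groups otherwise overlapped. These 9 changes ran from -0.08 to 0.08, and none passed. Among the compounds, 2 differences passed with the block: FGB was higher with 6N-10CA than with 10CA (0.16, adjusted p = 0.0104) and FGG lower with 10CA than with 6N (-0.16, adjusted p = 0.0101), against adjusted p-values of 0.119 and 0.0943 without it.

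The vehicles themselves stood apart in these genes. FGA measured 617, 599 and 588 CPM with ethanol, FGB 616, 612 and 610 CPM and FGG 1200, 1156 and 1166 CPM. For each chain all ethanol libraries were below all DMSO libraries. Between the vehicles 8.25% of all genes showed no overlap, and of the 38 members 3 stood higher and 4 lower in this way. Ethanol against DMSO gave -0.21 for FGA (SE 0.04, adjusted p = 0.367), -0.23 for FGG (SE 0.05, adjusted p = 0.379) and -0.12 for FGB (SE 0.04, adjusted p = 1). By edgeR 0 members were called between the vehicles (0% of all genes were), with these 3 the only members at an unadjusted p under 0.05, and DESeq2 called 2. Over all genes, 479 had an unadjusted p under 0.05, and DESeq2 called 13. FGA had the smallest p of all 14797 genes in that comparison and FGG the fifth smallest. With the block, 2 members were called between the vehicles (5.26%, against 0.122% of all genes): FGA (-0.21, adjusted p = 0.00651) and FGG (-0.23, adjusted p = 0.0325).

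With DLPC the fibrinogen levels were near those with ethanol: 645, 649 and 632 CPM for FGA, 590, 610 and 606 CPM for FGB and 1151, 1171 and 1170 CPM for FGG. FGA stood above all ethanol libraries (0.09, adjusted p = 0.283), FGB below them (-0.03, adjusted p = 0.839) and FGG among them (-0.01, adjusted p = 0.954). Which vehicle is taken as the control therefore bears on fibrinogen. Against ethanol, 6 members were called with 6N (15.8%, against 1.79% of all genes), FGA and FGG higher among them (0.20, adjusted p = 0.00835, and 0.31, adjusted p = 0.000841), where FGA changed by -0.01 against DMSO. The others were KNG1 (0.51) and C4BPB (0.24), higher, and C8A (-0.50) and CPB2 (-0.17), lower. For 6N-10CA against ethanol it was 4 members (10.5%, against 0.426%), namely KNG1 (0.79) and FGA, FGB and FGG (0.23, 0.20 and 0.27). For DLPC against DMSO it was CFI (-0.22) and FGG (-0.24), 2 members (5.26%, against 2.57%). The ethanol and DMSO libraries enter all of these comparisons, which are therefore not independent of each other.

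**Figure D4:**
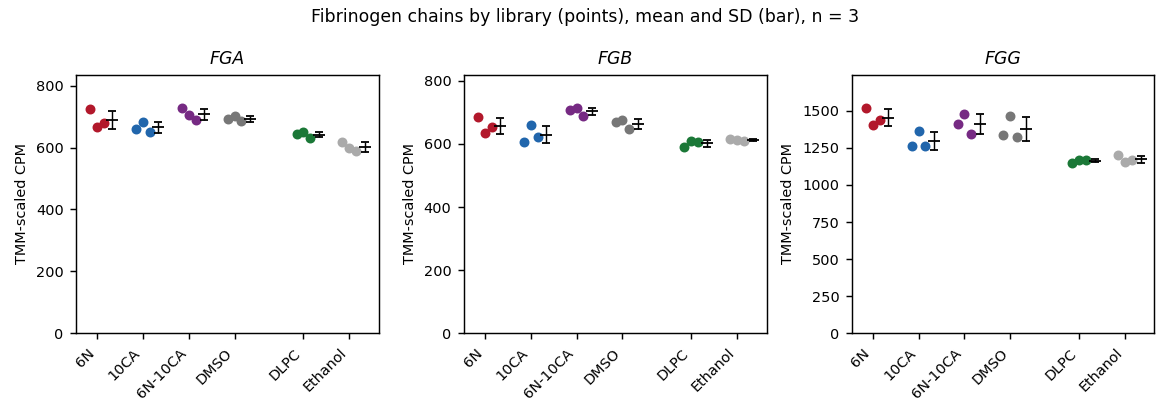
TMM-scaled CPM (vertical axes from 0) of the 3 fibrinogen chains in each library, by group, with mean and SD (n = 3). For FGG the DLPC and ethanol libraries lie at 1151 to 1200 and the DMSO libraries at 1322 to 1467.

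The proportions of the chains moved little. Per kilobase, FGG held 45.5% to 49.2% of the fibrinogen counts over all 18 libraries, FGB 29.5% to 32.4% and FGA 20.9% to 23.3%. FGG held 45.7% ± 0.178 with DLPC, against 46.3% ± 0.288 with ethanol, and 49.2% ± 0.036 with 6N, 47.3% ± 0.319 with 10CA and 47.2% ± 0.882 with 6N-10CA, against 47.6% ± 1.12 with DMSO (SD, n = 3 each). The length is that of all annotated exons merged, not of the transcripts present. Not divided by length, FGG held 48.2% to 51.9%, FGA 24.3% to 27.0% and FGB 23.4% to 25.9%. The order of FGA and FGB thus depended on the division. F13B lay at 0.638 to 1.91 CPM, and its -0.71 with 6N (SE 0.30, adjusted p = 0.433) did not pass.

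Of the vitamin K-dependent members, only PROS1 was called. It encodes protein S, a cofactor of activated protein C that circulates partly bound to the C4BPB product (chromosome 3, 93873033 to 93980003). PROS1 measured 98.7, 115 and 105 CPM with 10CA, 87.7, 89.2 and 93.6 CPM with 6N and 90.2, 95.8 and 97.7 CPM with 6N-10CA, against 99.8, 97.4 and 95.6 CPM with DMSO. The 10CA libraries stood above all 6N libraries, and the 6N libraries below all DMSO libraries. Between 10CA and 6N the difference of 0.24 (SE 0.05, adjusted p = 0.0191) was called, while the changes from DMSO were 0.12 (adjusted p = 0.68) with 10CA and -0.11 (adjusted p = 0.491) with 6N. The call was lost with only the 2 groups in the fit (adjusted p = 0.164) and without 6N replicate 1 or 2 or 10CA replicate 2 or 3 (adjusted p = 0.0638 to 0.117). Without 10CA replicate 2, the highest library, the difference was 0.17. With the block PROS1 was also lower with 6N-10CA than with 10CA (-0.17, adjusted p = 0.0478).

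F2 lay at 616 to 855 CPM over all libraries. With DLPC it measured 855, 735 and 786 CPM, against 747, 663 and 733 CPM with ethanol, and the groups overlapped. The change of 0.15 passed with the block (adjusted p = 0.00328) and not without it (adjusted p = 0.437). F7 and F10, the genes of the factors that start and carry on the chain to thrombin, and PROC, the gene of protein C (191 to 251 CPM), were called in no comparison with or without the block. F7 with DLPC stood above ethanol in all libraries (95.5, 83.1 and 91.9 CPM, against 82.4, 80.4 and 80.7 CPM; 0.15, adjusted p = 0.595).

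The inhibitors of clotting and contact proteases were not called without the block. SERPING1 encodes C1 inhibitor, which restrains C1, kallikrein and factor XII, and measured 18.5, 15.8 and 15.9 CPM with 6N, against 21.4, 19.7 and 19.9 CPM with DMSO, and 16.5, 15.6 and 16.4 CPM with DLPC, against 18.9, 19.2 and 18.9 CPM with ethanol. Both compounds gave lower levels without overlap, at -0.28 (SE 0.09, adjusted p = 0.216) with 6N and -0.23 (SE 0.09, adjusted p = 0.241) with DLPC. The DLPC change passed with the block (-0.23, adjusted p = 0.0446), and so did 10CA against 6N (0.25, adjusted p = 0.025). The 6N change passed with the block too, in the comparison that did not meet the criterion for pairing. TFPI, the gene of the inhibitor of the tissue factor pathway, measured 244, 220 and 245 CPM with 10CA and 221, 221 and 223 CPM with 6N-10CA, above the 201, 178 and 205 CPM of 6N. It passed with the block for 10CA against 6N (0.28, adjusted p = 0.000208) and for 6N-10CA against 6N (0.19, adjusted p = 0.00698), against 0.0729 and 0.259 without it. SERPINC1 (298 to 346 CPM), SERPIND1, the gene of heparin cofactor II (461 to 601 CPM), and A2M (3156 to 4258 CPM) were called in no comparison with or without the block. SERPIND1, which holds the LRH-1 core nearest to its start, changed by -0.06 with 6N, -0.03 with 10CA, -0.05 with 6N-10CA and 0.00 with DLPC.

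In fibrinolysis, CPB2 was called between 10CA and 6N. It encodes the carboxypeptidase TAFI, which protects fibrin from plasmin (chromosome 13, 46053195 to 46105033). CPB2 measured 206, 212 and 207 CPM with 10CA, 179, 180 and 192 CPM with 6N and 201, 207 and 195 CPM with 6N-10CA, against 196, 207 and 195 CPM with DMSO. The 6N libraries were below all others of the small molecule and DMSO groups. CPB2 was 0.18 higher with 10CA than with 6N (SE 0.04, adjusted p = 0.0244), and 6N against DMSO gave -0.12 (adjusted p = 0.286). The call was lost with only the 2 groups in the fit (adjusted p = 0.183) and without 6N replicate 1 or 2 or any 10CA library (adjusted p = 0.061 to 0.141). With the block CPB2 was also higher with 6N-10CA than with 6N (0.13, adjusted p = 0.0298). DLPC gave 193, 186 and 194 CPM, against 207, 203 and 212 CPM with ethanol, lower in every library but not called (-0.12, adjusted p = 0.198).

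SERPINF2 measured 797, 671 and 749 CPM with 6N, 672, 605 and 654 CPM with 10CA and 765, 634 and 704 CPM with 6N-10CA, against 710, 705 and 752 CPM with DMSO. The 10CA libraries were below all DMSO libraries, at -0.17 (SE 0.07, adjusted p = 0.679). With the block it was lower with 10CA than with 6N (-0.20, adjusted p = 0.00164) and higher with DLPC than with ethanol (0.13, adjusted p = 0.0379), where the levels were 806, 739 and 786 CPM, against 743, 663 and 728 CPM. PLG, the gene of plasminogen, lay between 52.1 and 94.3 CPM. It passed only with the block: 10CA against 6N gave 0.25 (adjusted p = 0.00225), 6N-10CA against 6N 0.16 (adjusted p = 0.0445) and DLPC against ethanol 0.18 (adjusted p = 0.0241).

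The replicate number went with a large part of the spread of some members. The group means took a median of 53.0% of the sum of squares of a member's log2 CPM, the replicate number 23.9% and the rest 14.1%. For 13 of the 38 members the number took more than the group did. The largest share was 77.5% for VTN, followed by 77.1% for F10, 75.4% for PLG and 74.4% for C2. Replicate 2 was the lowest of its group in all 6 groups for 12 members: F2, F7, F10, F12, PLG, SERPIND1, SERPINF2, PROC, VTN, C2, CFB and MASP1. VTN, for example, lay at 679 to 792 CPM in the 6 libraries with number 2 and at 796 to 986 CPM in the other 12. These shares and counts were not taken over all genes, so they do not set the members apart. Deviations of same-numbered libraries from their group means also correlated over 10686 genes (0.0874 to 0.586). The shares were not adjusted for there being 6 groups and 3 numbers. The labels do not say what a replicate number marks.

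**Figure D5:**
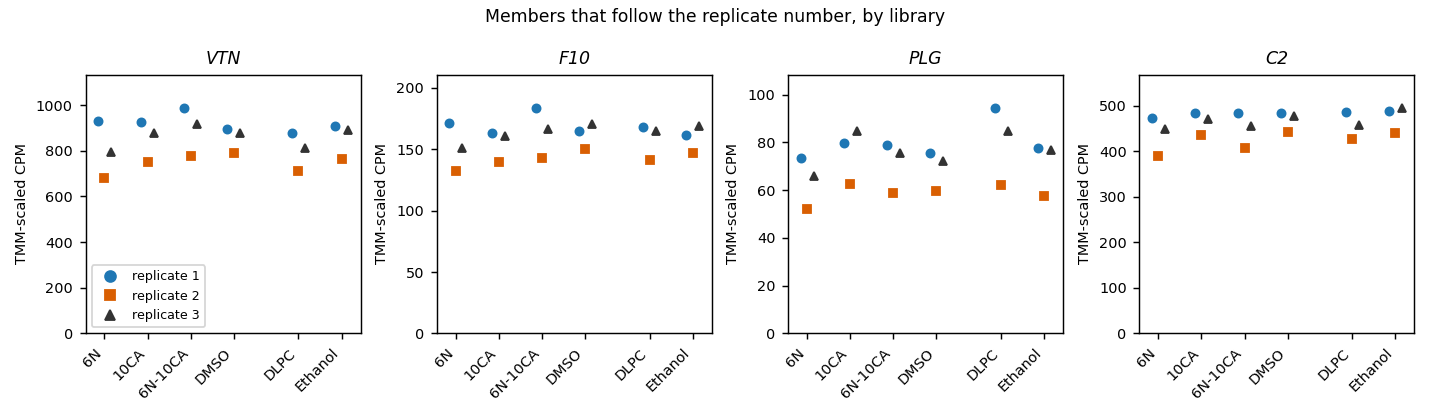
TMM-scaled CPM (vertical axes from 0) of 4 members in each library, by group and marked by replicate number. Replicate 2 (squares) is the lowest of its group in all 6 groups for each of the 4, at 679 to 792 for VTN and 389 to 441 for C2.

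Few other genes of the same pathways were called without the block. Of 36 further coagulation and complement genes, 24 were tested, and 1 was called with 6N against DMSO, 1 between 10CA and 6N and 0 in the 6 other comparisons. In both cases it was SERPINA5, the gene of protein C inhibitor, at 662 CPM with 6N, 529 CPM with 10CA and 552 CPM with DMSO on average (0.26, SE 0.06, adjusted p = 0.0184, with 6N against DMSO, and -0.32, SE 0.06, adjusted p = 0.00275, with 10CA against 6N). The median log2 change of the 24 was -0.06 with 6N, -0.02 with 10CA, -0.02 with 6N-10CA and -0.04 with DLPC. The 7 genes of the vitamin K cycle and of clotting factor secretion and 12 liver transcription factors, NR5A2 among them, had 0 calls by edgeR in all 8 comparisons, with at most 2 and 4 genes at an unadjusted p under 0.05 in any of them. With the block the most calls were 4 of the 24 genes, both for 6N-10CA against DMSO and for 10CA against 6N (3.8% and 7.66% of all genes there). Of the transcription factors it was 3 for 6N-10CA against DMSO and 3 for DLPC against ethanol, and of the vitamin K and secretion genes 2 for DLPC against ethanol (6.74% of all genes). Among the stromal markers PDGFRB was higher with 10CA than with 6N (0.62, adjusted p = 0.0449), 1 of the 3 tested of 6, while the summed stromal markers ran from 102 to 113 CPM with 10CA and 108 to 122 CPM with 6N. COL1A1, COL3A1, DCN and LUM stayed under 1 CPM in every library, and the part of these markers in the member differences of that pair was not tested.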

How the data were processed

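RNA was sequenced from HepG2 cells in 18 libraries, 3 in each of 6 groups. The deposited table holds raw counts per gene symbol for all libraries. The build GRCh38 and the tool DESeq2 are named in the submitters' processing notes. Aligner, counter and strandedness are not given there or in the other labels. Each column was matched to a library by its name and title. The table holds 28 date-like symbols, which were left as deposited, and no member is among them.

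Counts were tested with edgeR 4.0.16 (R 4.3.3): TMM factors, the low-count filter filterByExpr by group (minimum count 10, total 15), 1 quasi-likelihood fit over all 18 libraries with a mean per group, and Benjamini-Hochberg adjustment over all 14797 genes kept, with a two-sided threshold of 0.05. The kept genes hold 99.96% of all counts. Group levels are TMM-scaled CPM, per-kilobase values divide by merged GENCODE release 29 exon length, and intervals are 95% intervals of the fit. Alternatives were edgeR's RLE factors, other filters, the replicate number as a block, the 2 groups alone, DESeq2 1.42.0, limma-voom (limma 3.58.1), each library left out, the other vehicle and adjustment over the 3 compound pairs together. The test was checked on counts simulated for 6N against DMSO, without an effect of the replicate number. It called 51 of 63 genes with a true log2 change of -1 and 44 of 52 with 1. For changes of -0.5 and 0.5 it called 23 of 44 and 26 of 41, and of unchanged genes 12 of 14449. Smaller changes were not simulated. No libraries of a group agreed within sampling noise (chi-square 4.70 to 14.7 per gene).

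Replicate numbers come from the titles. Same-numbered libraries were taken as paired where the deviations from the group means correlated above 0.1 in all 3 pairs, over 10686 genes of at least 5 CPM. The correlations ran from 0.0874 to 0.586, and 7 of the 8 comparisons met this. Totals of 28135967 to 34992442 counts put the 3-count floor at 0.0857 to 0.107 CPM, for counting error only.

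Values in every library are given for members called in any comparison, for the 3 with the smallest p in each and for the fibrinogen chains, and the others mainly by range. The members, lists and this rule were chosen with earlier results of these data known, and the promoters shown were chosen after the motif search.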

Additional observations from a re-analysis of the deposited data

How the results depend on the processing

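The number of members called depended on the fit. The replicate block gave 9 for DLPC against ethanol, 4 for 6N-10CA against DMSO, 9 for 6N-10CA against 6N, 7 for 6N-10CA against 10CA, 14 for 10CA against 6N and 2 for ethanol against DMSO. For 6N against DMSO, where the same-number correlations were 0.230, 0.0874 and 0.136, it gave 8 members (3.72% of all genes), with C4BPB and KNG1 higher and C8A, CFB, CFI, MBL2, SERPING1 and TFPI lower, and all 18 libraries correlated best with their own number. Without the low-count filter the counts were 3 for 6N against DMSO (0.965% of all genes), 4 for 6N-10CA against DMSO (0.504%), 2 for 6N-10CA against 6N (1.61%), 3 for 6N-10CA against 10CA (0.616%), 9 for 10CA against 6N (1.69%) and 2 for ethanol against DMSO (0.148%). With a mean of at least 1 CPM they were 1 for 6N-10CA against 6N (2.05%) and 2 for 6N-10CA against 10CA (0.397%). With only the 2 groups in the fit they were 1 for 6N against DMSO (0.857%) and 2 for 10CA against 6N (0.794%). DESeq2 called 2 for DLPC against ethanol (2.57%), 3 for 6N-10CA against DMSO (1.17%), 2 for 6N-10CA against 6N (3.39%), 3 for 6N-10CA against 10CA (0.804%), 8 for 10CA against 6N (3.35%) and 2 for ethanol against DMSO (0.0879%). The other vehicle gave 6 for 6N (1.79%), 4 for 6N-10CA (0.426%) and 2 for DLPC (2.57%), and adjustment over the 3 pairs gave 2 for 6N-10CA against 10CA (0.493%). With each library left out in turn, the counts were 1 to 2 for 6N against DMSO (0.739% to 0.991%), 2 to 5 for 10CA against 6N (0.938% to 2.25%) and 0 to 1 for 6N-10CA against 6N (0.918% to 1.56%). Of 1332 log2 differences recomputed for 12 named members, 1215 kept their direction and their side of the threshold, 51 passed only under the alternative, 22 no longer passed and 44 changed sign, 43 of which passed in neither fit. The exception was FGA with 6N, at 0.20 against ethanol. The other sign changes against ethanol were 0.14 for FGA, 0.14 for FGG, 0.039 for FGB and -0.081 for F11 with 10CA, 0.10 for FGB and -0.084 for C5 with 6N, and -0.045 for CPB2 and -0.096 for F11 with 6N-10CA. FGA with DLPC was -0.11 against DMSO. The log2 difference for MBL2, 10CA vs DMSO, which was 0.0017 in the edgeR fit reported, was -0.0021 with a mean of at least 1 CPM, -0.0055 with the replicate block, -0.00016 by DESeq2 and -0.0086 by limma-voom. Leaving out single libraries crossed 0 for 6N against DMSO in C5 (-0.0032 to 0.074), SERPINF2 (-0.025 to 0.10), FGB (-0.043 to 0.016) and FGA (-0.045 to 0.020). It did so for 10CA against DMSO in MBL2 (-0.076 to 0.13) and F11 (-0.025 to 0.047), and for 6N-10CA against DMSO in CPB2 (-0.0067 to 0.038), SERPINF2 (-0.11 to 0.027) and F11 (-0.028 to 0.029). The same held for DLPC against ethanol in C5 (-0.0069 to 0.080) and FGG (-0.026 to 0.0037), for 6N-10CA against 6N in MBL2 (-0.25 to 0.23) and for 6N-10CA against 10CA in F11 (-0.042 to 0.030). For ethanol against DMSO it held in KNG1 (-0.11 to 0.010), CFI (-0.018 to 0.015), SERPINF2 (-0.054 to 0.028) and MBL2 (-0.12 to 0.056). The cause was not tested. At 3 libraries a group, the 95% intervals of the members reached 0.16 to either side at the median and up to 0.63 for F13B, which limits how small a difference could be called, and F9 and C9 were too low to compare.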
